A study of Arabidopsis thaliana with 12 samples.

Results

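The plastid ribosomal protein genes described here are 4 nuclear genes of Arabidopsis thaliana: AT1G64510 for protein S6 of the small subunit, and AT1G29070, AT4G01310 and AT3G54210 for proteins L34, L5 and L17 of the large subunit. They are 4 of the 692 features that the platform annotation ties to 1 gene, on an array of 3439 features. They were chosen from 6 plastid ribosomal protein genes with such a feature. The choice took those that passed an adjusted p of 0.05 in limma as lower in kn09 on proline than in wild type on glucose. The other 2, AT3G13120 (S10) and AT5G65220 (L29), did not pass, though their mean intensities were also lower in kn09. The difference between these groups therefore chose the 4 genes, and for them it is given as a description with no test. No feature shared a gene with another among the 6.

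Plastids make proteins on ribosomes of bacterial type. The plastid genome codes for some of their proteins and for their RNAs, and the remaining proteins, including all of those described here, are encoded in the nucleus, made in the cytosol and imported. These ribosomes make core subunits of the photosystems, of the cytochrome complex and of the plastid ATP synthase, and the large subunit of Rubisco, so leaves hold many of them and roots few. In bacteria, S6 sits on the platform of the small subunit beside S18, L5 binds the smaller RNA of the large subunit, L17 lies near the exit of the peptide tunnel, and L34 is a small basic protein of the large subunit.

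RNA was measured in 6 samples of each group, all of the ecotype Wassilevskija. One group was wild type, with roots on MS medium containing 100 mM glucose for 48 h. The other was kn09, a mutant hypersensitive to proline whose mitochondrial breakdown of proline is blocked, kept as long on MS medium containing 100 mM proline. The medium and the genotype changed together, so their parts in a difference cannot be told apart. The mutated gene is not named in the labels, nor is the tissue that gave the RNA beyond the treated roots. Whether samples came from separate plants is also not stated, so a p-value reflects the spread among samples that may be technical repeats.

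Intensities were deposited with no stated scale or reference and were taken as linear. Sample medians lay between 0.137 and 0.224, and the highest features stood at a ceiling of 100. Samples 1 and 2, 3 and 4, and 5 and 6 of a group formed pairs, with rank correlations of 0.838 to 0.944 within a pair and 0.782 to 0.874 across pairs of a group. Features listed at 0 numbered 175 to 265 in the wild type samples and 317 to 475 in the kn09 samples. Of 20 root marker genes on the list used, 0 had a single-gene feature, so the root label could not be checked. Genes of the photosynthetic apparatus, known from green tissue, were measured above 0 in all 12 samples for 5 of 6, with LHB1B2, a chlorophyll-binding protein of the photosystem II antenna, between 4.28 and 40.3. In such bulk samples, fewer cells of a type and less RNA per cell cannot be told apart. The number of arrays limits the precision of all values below.

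In the small subunit, S6 had measurable signal in every wild type sample and almost none in kn09. AT1G64510 had intensities of 0.166, 0.139, 0.313, 0.252, 0.300 and 0.126 in wild type samples 1 to 6. In kn09 it was listed at 0 in samples 1, 3, 5 and 6, and stood at 0.00190 in sample 2 and 0.0299 in sample 4. The groups did not overlap, and the lowest wild type value was 4.21 times the highest kn09 value. The wild type mean was 0.216 ± 0.0828 (SD, n = 6) and the kn09 mean 0.00530 ± 0.0121 (SD, n = 6). S6 lay below the median of the sample in 3 of 6 wild type samples and in all 6 kn09 samples. Within the wild type, sample 3 was the highest and sample 6 the lowest, and the widest gap inside a pair was between samples 5 and 6, at 2.39-fold.

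**Figure D1:**
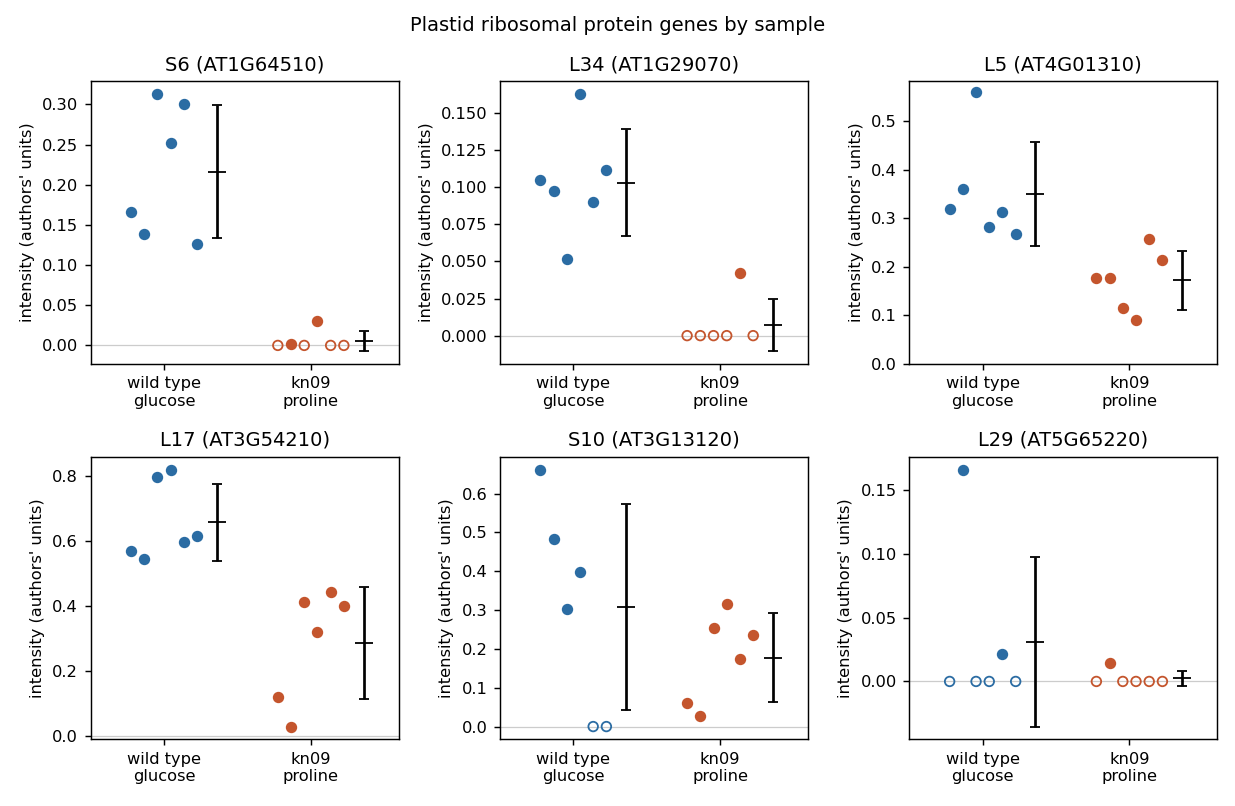
Intensity in the authors' units (vertical axis, linear, a separate scale for each gene) of the 6 plastid ribosomal protein genes in the 6 wild type samples on glucose and the 6 kn09 samples on proline, in the order of their numbers. Each point is 1 sample, open circles are values listed at 0, and the bars to the right of the points are the mean ± SD; S6, L34, L5 and L17 show no overlap between the groups, while S10 and L29 do.

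In the large subunit, L34 likewise had signal throughout the wild type and zeros in most kn09 samples. AT1G29070 had intensities of 0.105, 0.0972, 0.0515, 0.163, 0.0903 and 0.112 in wild type samples 1 to 6, with a mean of 0.103 ± 0.0361 (SD, n = 6). In kn09 only sample 5 had a signal, 0.0425, and the other 5 samples were listed at 0. That value came close to wild type sample 3 without reaching it, so the groups did not overlap, by a margin of 1.21-fold. L34 lay below the sample median in all 12 samples. Wild type samples 3 and 4, which form a pair, held its lowest and its highest value and differed 3.16-fold. The level of L34 in kn09 therefore rests on a single positive value.

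L5 was lower in kn09 with a measurable signal in all 12 samples. AT4G01310 had intensities of 0.318, 0.359, 0.559, 0.282, 0.313 and 0.267 in wild type samples 1 to 6. The kn09 samples 1 to 6 stood at 0.176, 0.177, 0.115, 0.0901, 0.257 and 0.214. The groups were adjacent but did not overlap, the lowest wild type value being 1.04 times the highest kn09 value. The means were 0.350 ± 0.108 (SD, n = 6) and 0.171 ± 0.0615 (SD, n = 6), so that kn09 stood at 49.0% of wild type. In kn09 the values followed the pairs, with means of 0.177, 0.103 and 0.235 for samples 1 and 2, 3 and 4, and 5 and 6, while the samples of a pair differed by no more than 1.28-fold. In wild type, sample 3 stood above the others, at 0.559 against 0.282 in sample 4 of the same pair.

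L17 was lower in kn09 in all samples, and by very different amounts. AT3G54210 had intensities of 0.571, 0.545, 0.798, 0.821, 0.597 and 0.617 in wild type samples 1 to 6. The kn09 samples 1 to 6 stood at 0.120, 0.0296, 0.413, 0.320, 0.444 and 0.400. The groups did not overlap, with a margin of 1.23-fold. The wild type mean was 0.658 ± 0.120 (SD, n = 6) and the kn09 mean 0.288 ± 0.172 (SD, n = 6), or 43.7% of wild type. The wild type pairs were tight, since the members of a pair differed by at most 1.05-fold. In kn09, samples 1 and 2 stood far below the other 4 and differed 4.05-fold from each other. Without them the kn09 mean was 0.394 ± 0.0527 (SD, n = 4), or 59.9% of the wild type mean; the same omission left L5 at 48.3%.

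The 2 plastid ribosomal protein genes outside the choice showed no such separation. AT3G13120, for S10 of the small subunit, had intensities of 0.662, 0.484, 0.303 and 0.398 in wild type samples 1 to 4 and was listed at 0 in samples 5 and 6. In kn09 its 6 values ran from 0.0266 to 0.317, with a median of 0.205 against 0.351 in wild type, and none was 0. The wild type mean was 0.308 ± 0.266 (SD, n = 6) and the kn09 mean 0.178 ± 0.114 (SD, n = 6), or 57.8% of wild type. Wild type samples 5 and 6 lay below every kn09 sample and wild type samples 1, 2 and 4 above every one of them. AT5G65220, for L29 of the large subunit, was at 0 in 4 of 6 wild type and 5 of 6 kn09 samples, and its highest value was 0.166 in wild type sample 2. Nothing about a difference in L29 can be read from so few positive values. In the order of adjusted p that the choice used, L17 was the last gene inside the threshold and L29 the first outside it.

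All 4 genes had every kn09 sample below every wild type sample, as 8.69% of the 3439 features did, and their pair means were separated too, as for 18.8% of the features. S6 and L34 belonged to the 37 features, or 1.08%, listed at 0 in 4 or more kn09 samples and in no wild type sample. Features at 0 were also more numerous overall in the kn09 samples, at 317 to 475 against 175 to 265, and the part of this in the zeros of S6 and L34 was not tested. These counts follow from the way the genes were chosen, and nothing about the genes is read from them.

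On the log2 scale, after values under the 1st percentile of the positive values of a sample had been raised to that percentile and the samples quantile normalized, the difference of kn09 minus wild type was -4.61 ± 0.54 (SE) for S6. It was -3.26 ± 0.66 (SE) for L34, -1.52 ± 0.50 (SE) for L17 and -1.01 ± 0.26 (SE) for L5. With a pseudocount of 0.05 in place of the floor the differences of S6 and L34 were -2.01 and -1.25. With zeros as missing, S6 was -4.66, from 2 kn09 values, and L34 was -1.07, from 1 kn09 value. With only exact zeros raised to the floor they were -4.88 and -3.21. The sizes for L5 and L17 moved less, between -0.82 and -1.15 for L5 and between -0.77 and -1.71 for L17, where -0.77 is the value without kn09 samples 1 and 2. S10 had a difference of 0.66 ± 1.32 (SE) and L29 of -0.56 ± 0.83 (SE), both smaller than their errors. The sign of S10 turned with a pseudocount, with zeros as missing and without wild type sample 5 or 6, and that of L29 without wild type sample 2. The median difference over all 6 genes was -1.26, and that over all 3439 features -0.03. Across all features 13.6% passed an adjusted p of 0.05 in limma as lower in kn09 and 14.1% as higher; of the 6 plastid ribosomal protein genes 4 were lower, by the choice itself, and 0 higher. On the means of the sample pairs, or with the pairs as a random block, that count was 2, leaving S6 and L34. It was 3 without wild type sample 1, 3, 4, 5 or 6 or without kn09 sample 1, and in each of these cases L17 dropped out. Over all 3439 features, 126 passed as lower in the pair-mean fit and 278 in the random-block fit, against 469 in the main fit. The 4 genes were chosen in the same values, so these counts are no test of them. For S6 and L34 the counts also rest on 4 and 5 kn09 zeros raised to the floor. The S6 value of kn09 sample 2, 0.00190, lay under the floor and was raised too.

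**Figure D2:**
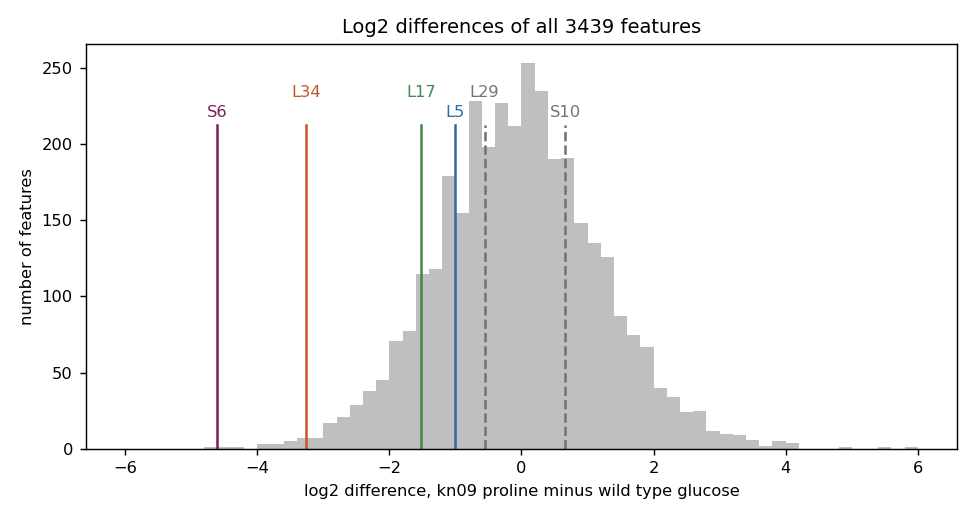
Number of features (vertical axis) by log2 difference of kn09 on proline minus wild type on glucose (horizontal axis, bars 0.2 wide) for all 3439 features. Solid lines mark S6 at -4.61, L34 at -3.26, L17 at -1.52 and L5 at -1.01, in the left part of the distribution from which they were chosen; dashed lines mark L29 at -0.56 and S10 at 0.66, nearer its centre.

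The list of genes of the photosynthetic apparatus and Calvin cycle, whose products depend on or work beside those made on plastid ribosomes, had 6 single-gene features among its 56 genes. Of these, 4 fell in kn09 on proline and 1 rose in limma. SBPASE (AT3G55800) had a log2 difference of -2.09 ± 0.96 (SE), with 2 kn09 samples at 0, and did not pass (limma, adjusted p = 0.129). Over all features the shares were 13.6% lower and 14.1% higher. The list was chosen with earlier results of these data known, so these calls are no independent test. LHB1B2 (AT2G34420), of the antenna, had a log2 difference of -2.63 ± 0.23 (SE; limma, adjusted p = 8.43e-06). The photosystem I subunit PSAN (AT5G64040) had one of -2.42 ± 0.22 (SE), and phosphoribulokinase, PRK (AT1G32060), which regenerates the acceptor of the Calvin cycle, one of -2.06 ± 0.27 (SE). PSBY (AT1G67740), a small photosystem II protein, had a log2 difference of -1.15 ± 0.16 (SE; limma, adjusted p = 0.000310). On the pair means the adjusted p in limma was 0.0207 for LHB1B2, 0.0259 for PSAN and 0.04 for PRK. There it was 0.0737 for PSBY, which did not pass. PSBW (AT2G30570), also of photosystem II, was the gene that rose, by 0.92 ± 0.27 (SE; limma, adjusted p = 0.0262). Its call ended under 9 of the alternatives, 6 of them the omission of 1 sample (wild type 3, 4, 5 or 6, or kn09 3 or 4), and its value in kn09 sample 4 stood at the ceiling. The median difference over the 6 genes was -2.07. The summed intensity of the list without PSBW was 35.1 to 53.8 in wild type and 6.81 to 9.82 in kn09; with PSBW, which makes up most of the sum in kn09, it was 71.8 to 85.9 and 56.7 to 107.0. No gene of this list was at 0 in wild type. The part of a different share of green tissue in the values of the 4 ribosomal protein genes was not tested.

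**Figure D3:**
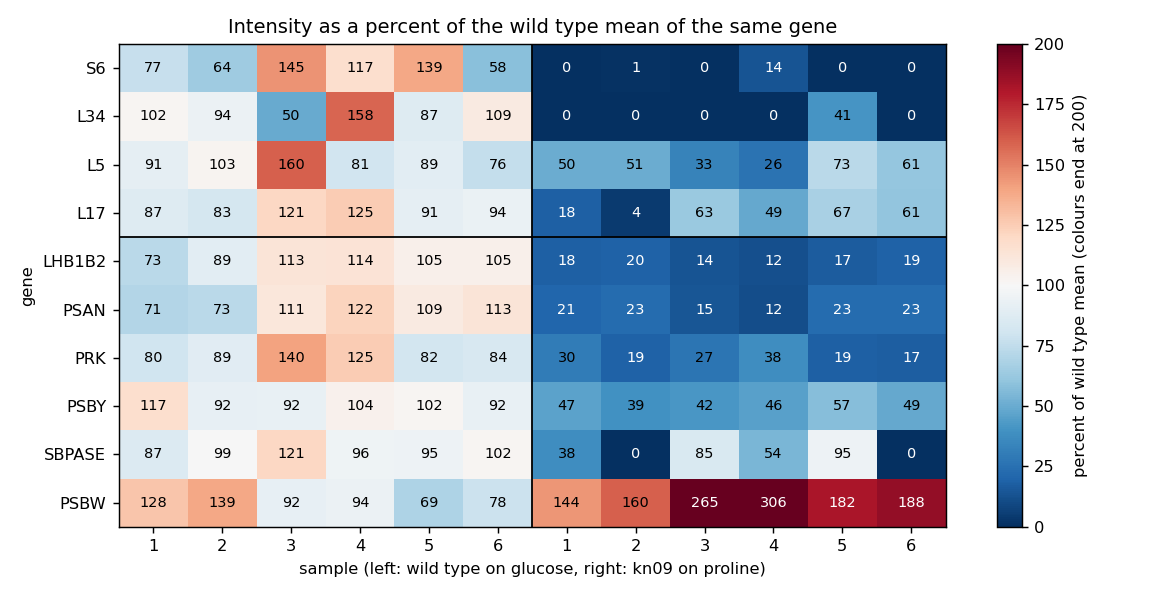
Intensity of each gene (rows) in each sample (columns, wild type on glucose at left, kn09 on proline at right) as a percent of the wild type mean of that gene, printed in each cell and coloured up to 200. Above the line are the 4 plastid ribosomal protein genes and below it the 6 measured genes of the photosynthetic apparatus and Calvin cycle; L17 is lowest in kn09 samples 1 and 2, L5 in kn09 samples 3 and 4, and PSBW is the row above 100 throughout kn09.

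The 4 genes did not share 1 profile among the samples of a group. Relative to the wild type mean, kn09 samples 1 and 2 stood at 18.2% and 4.49% for L17 but at 50.4% and 50.6% for L5. The kn09 samples 3 and 4 held the lowest values of L5, at 32.9% and 25.8%, while L17 stood at 62.8% and 48.7% in them, above samples 1 and 2. LHB1B2 and PSAN were, like L5, lowest in kn09 samples 3 and 4, at 11.7% to 14.8%. The other measured genes of the photosynthetic apparatus and Calvin cycle were not. PRK and PSBW were highest within kn09 in sample 4, at 38.2% and 306%. PSBY was lowest in kn09 sample 2, at 39.3%, and SBPASE was at 0 in kn09 samples 2 and 6. In wild type, S6, L5 and L17 all stood above their mean in sample 3, at 145%, 160% and 121%, where L34 was at 49.9%. As a description over the 6 samples of a group, which come in pairs and share their normalization, the Pearson correlations of normalized log2 values between the 4 genes ran from -0.79 to 0.66 in wild type. In kn09, L5 and L17 correlated at -0.30; S6 and L34 each had 1 kn09 value above the floor, so no correlation is read for them there. Over all 12 samples they ran from 0.44 to 0.73, values that hold the group difference by which the genes were chosen.

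Of the 692 single-gene features, those with the highest Pearson correlation to each gene over the 12 samples were taken as most alike. For S6 these were AT3G54550 with 0.96, AT2G40980 with 0.96 and CUTA (AT2G33740), a copper-binding protein of the plastid, with 0.95. For L34 they were AT1G54500 with 0.87, PSBY with 0.85 and AT5G06790 with 0.84. For L5 they were AT1G72640 with 0.93, AT2G34050 with 0.89 and PSAN with 0.87. For L17 they were Cpn60beta3 (AT5G56500), a subunit of the plastid chaperonin, with 0.95, AT1G21500 with 0.93 and AT4G39570 with 0.92. Each of these 12 genes had a lower mean in kn09, which the measure favours. Within groups the likeness was uneven. AT3G54550 and S6 correlated at 0.90 in wild type, and no value is read in kn09, where S6 had 1 sample above the floor. PSAN and L5 correlated at 0.94 in kn09 and at 0.02 in wild type. Cpn60beta3 and L17 correlated at 0.43 in wild type and 0.93 in kn09, where both sets of values include the low samples 1 and 2 of L17. For none of the 4 genes was another of the 4 among its 3 most alike.

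The other lists of plastid gene expression could not be set beside these genes, and plastid gene expression genes outside the lists were not looked for. Of 22 genes for plastid translation and ribosome assembly factors and 20 for plastid transcription, 0 had a single-gene feature. Outside the plastid list, 0 single-gene features carried the words ribosomal protein in their gene symbols or synonyms. Only 67 genes of the reference carry these words in their synonyms, and descriptions were not searched. Features of cytosolic and mitochondrial ribosomal proteins may therefore have been missed, and these proteins were not analysed here.

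**Figure D4:**
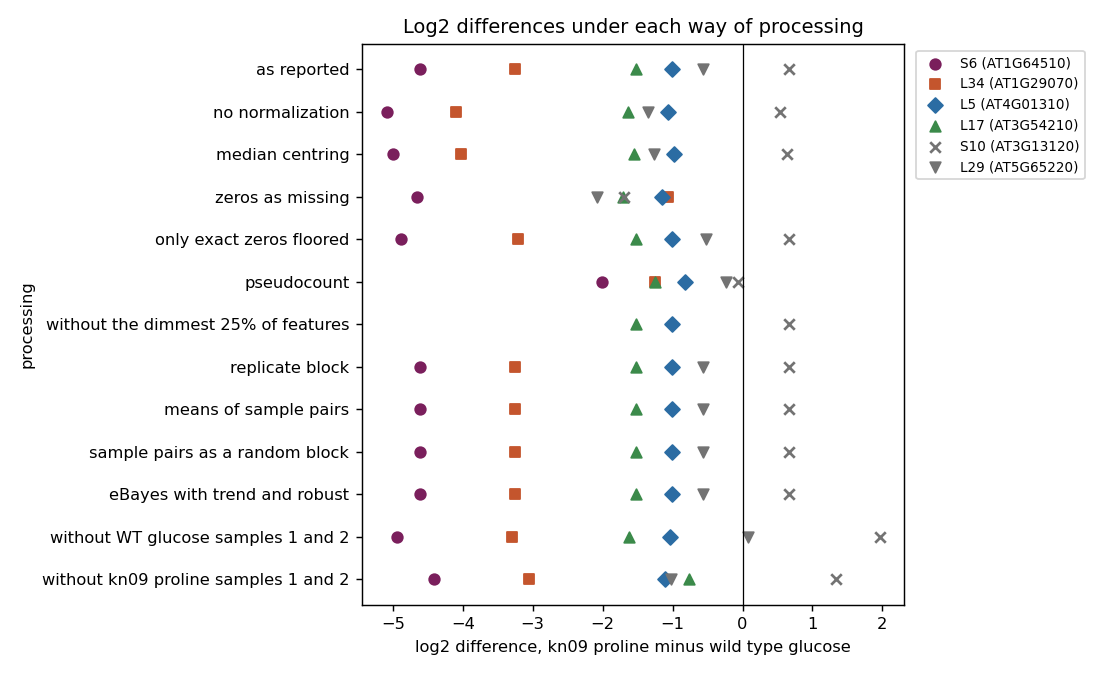
Log2 difference of kn09 on proline minus wild type on glucose (horizontal axis) for the 6 plastid ribosomal protein genes under each way of processing (rows; omissions of a single sample are not drawn). Points of S6, L34, L5 and L17 lie left of 0 in every row in which they were measured, S6 between -5.09 and -2.01, while S10 lies on either side. The side of S6, L34, L5 and L17 follows from the way they were chosen.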

How the data were processed

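Intensities of 3439 features in 12 samples were used as the authors deposited them. The values have a floor at 0 and a ceiling of 100 and were taken as linear. Scanner, background correction, normalization, filters, centring and the reference of the scale are unstated. Gene names came from GEO's platform annotation, with current loci looked up by Entrez identifier among TAIR10.1 genes: 692 features had 1 gene, 870 several and 1877 none, and 690 of the 692 matched a locus. The files name no genome build, so no coordinates are printed.

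Every value under the 1st percentile of a sample's positive values (0.00331 to 0.00906) was raised to it, so that no zero ranks above a positive value, and log2 was taken. Medians and interquartile ranges differed by more than 0.1, so samples were quantile normalized. The groups were compared in limma 3.58.1 (R 4.3.3; lmFit, eBayes, two-sided), with no covariate beside group, and adjusted by Benjamini-Hochberg across the 3439 features at 0.05. Means and SDs are of deposited intensities.

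The members, lists and tests were chosen with earlier results of these data known. Genes were named by rule: the plastid ribosomal protein genes, up to 4 passing genes of each other list, and the 3 features most like each member; PSBW and SBPASE were added after their values were seen. On 10 simulated sets with 200 of the 3439 features changed in this comparison, the fit found 32.1% of log2 changes of 1 and 71.1% of those of 2, and 5.23% of its calls were false. The changed features were not drawn from the dimmest 25% of features, to which S6 and L34 belong. These shares describe the simulated sets only. The measured samples held many zeros, came in pairs with a limma correlation of 0.45, and gave 954 calls. Whether the shares hold for the measured values was not tested. Alternatives numbered 22 planned and 2 chosen after the data were seen, the omission of samples 1 and 2 of either group.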

Additional observations from a re-analysis of the deposited data

Results flagged for a closer look

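In 24 sets of 6 values, those of the 6 plastid ribosomal protein genes and the 6 genes of the photosynthetic apparatus and Calvin cycle in each group, 5 held a sample far from the others, where chance alone flags about 1 in 20. AT4G01310 (L5) reached 0.559 in sample 3 of the wild type, while the remaining 5 ran from 0.267 to 0.359. AT1G64510 (S6) stood at 0.0299 in kn09 sample 4, where the others lay between 0 and 0.00190. AT1G29070 (L34) had its 1 positive kn09 value, 0.0425, in sample 5. AT5G65220 (L29) stood at 0.166 in wild type sample 2, with the others between 0 and 0.0214, and at 0.0146 in kn09 sample 2 with the others at 0. In the last 4 of these sets nearly all other values are 0, so any positive value stands apart.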

How the results depend on the processing

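S6, L34, L5 and L17 were lower in kn09 under each of the alternatives that gave them a value. These numbered 23 for S6 and L34, which are among the dimmest 25% of features, and 24 for L5 and L17. The genes were chosen for this direction in the same values, so neither their sign nor their counts below are a test of them. With a pseudocount the log2 difference of S6 was -2.01 and that of L34 -1.25, and with zeros as missing that of L34 was -1.07. Leaving out 1 sample at a time gave -5.12 to -4.43 for S6, -3.75 to -3.07 for L34, -1.11 to -0.86 for L5 and -1.70 to -1.07 for L17, the weakest without kn09 sample 2. S10 ran from -0.19 to 1.23 in these omissions and was -1.70 with zeros as missing; L29 ran from -0.99 to 0.17, positive without wild type sample 2. Without normalization the median difference of all features was -0.37, against which L5 stood at -1.07 and L17 at -1.64; with median centring it was -0.28 and with zeros as missing -0.13. Over all features 469 were lower and 485 higher; on the means of the sample pairs 126 and 87, and with the pairs as a random block 278 and 346. Leaving out 1 sample gave 369 to 518 lower and 424 to 500 higher. Of the plastid ribosomal protein genes, 2 were counted as lower on the pair means, with the random block and without the dimmest features, where S6 and L34 are not tested, and 3 or 4 when 1 sample was left out; 3 were counted without normalization or with median centring, where L17 dropped out, and with zeros as missing, where L34 did. In the photosynthesis list, 0 rose on the pair means, with the random block and with the replicate block, and 0 or 1 when 1 sample was left out. Deviations from the group means correlated weakly between samples of the same number, at 0.030 to 0.097 in the 6 numbers. Each kn09 sample nevertheless correlated best with the wild type sample of its own number, so a pairing by number is possible. The reported fit did not use it. With the replicate block, 406 features were lower and 429 higher, and 4 plastid ribosomal protein genes were still counted as lower. Signal near the floor limits S6, L34 and L29, since a value listed at 0 gives no level.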
